A study of Mus musculus with 11 samples.

Results

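The 10 genes described here mark the mesangial cells and pericytes of the mouse glomerulus, or signal to them: Pdgfb, Pdgfrb, Pdgfra, Itga8, Gata3, Rgs5, Des, Cspg4, Serpine2 and Mcam. They were taken by gene symbol from the 13734 genes of a count table of isolated glomeruli, and all 10 were measured. They were chosen as identity genes, with earlier results of these data known. Mesangial cells sit between the capillary loops of the glomerulus, hold the loops together and lay down the mesangial matrix that expands in diabetic kidney disease. Endothelial cells release PDGF-B, the product of Pdgfb, which acts on the receptor PDGFR-beta on mesangial cells and pericytes. Mice without either protein form glomeruli that lack mesangial cells.

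The 11 libraries fell into 3 groups. Mice with the db mutation of the leptin receptor on both alleles (db/db) become obese and diabetic, and here received puerarin, a glucoside from kudzu root (n = 3), or its vehicle (n = 4). Vehicle-treated db/m littermates were the non-diabetic controls (n = 4). Puerarin was given by gavage at 20 mg per kg body weight per day in 5% DMSO, the vehicle of all groups. Treatment began at 10 weeks of age and lasted 6 weeks. The labels give the mice as male and on the BKS background, while the strain field reads C57BL/6J. The db mutation acts in the whole animal, so the labels give no driver or cell type, and they do not say whether a library came from 1 mouse or several. P-values then measure the spread between these libraries, which may be technical. Library titles had 2 forms, an S number (S-number libraries, n = 5) or a group tag with a running number (group-tag libraries, n = 6). Both forms occurred in each group, and the single S-number library of the puerarin group was S144. What the forms stand for is not stated, and the labels name 2 sequencing sites without tying libraries to them.

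Libraries held 35369703 to 44244460 counts. Defining markers of the glomerulus were high in all 11, with Nphs1 of podocytes at 1178 to 1567 CPM and Pecam1 of endothelium at 1016 to 1850 CPM (CPM, read counts scaled by library totals with TMM factors). Tubule RNA was present as well, with Umod of the loop of Henle at 472 to 3562 CPM and Slc34a1 of the proximal tubule at 203 to 1087 CPM. Of 7 fibroblast markers Col1a1 and Dcn stayed at or below 9.4 CPM, but the list's summed level was 1629 to 2485 CPM, most of it from Gsn (group means of 1491 to 1600 CPM), with Pi16 at 196 to 229, Cd34 at 175 to 218 and Col1a2 at 77.0 to 102 CPM. Other kidney cells also express several of these genes. The label of male mice was contradicted in 2 libraries: Xist, transcribed from the inactive X chromosome, read 528 and 819 CPM in db/db puerarin 2 and 3 and 0.5 to 6.5 CPM in the other 9 libraries. The Y-linked Ddx3y read 3.1 and 0.9 CPM in those 2 libraries and 50.3 to 85.2 CPM elsewhere. Several of the results that rest on them are given without them too, which leaves 1 puerarin library. The others are given with all 11 libraries only. In tissue RNA, fewer mesangial cells and less RNA per mesangial cell cannot be told apart.

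Serpine2 and Rgs5 had the smallest p-values of the 10 genes in the comparisons below, so the 250 bases before their transcription starts are shown. They come from RefSeq promoter windows (GRCm38.p6), which held entries for 8 of the 10 genes. The Serpine2 window lies on the minus strand at chr1:79858666-79858915 and the Rgs5 window on the plus strand at chr1:169655251-169655500. Both read 5′ to 3′ along the gene and end at the base before the start. Capitals mark matches to the GC box GGGCGG, the E box CANNTG and the GATA motif AGATAA, searched on both strands.
Serpine2: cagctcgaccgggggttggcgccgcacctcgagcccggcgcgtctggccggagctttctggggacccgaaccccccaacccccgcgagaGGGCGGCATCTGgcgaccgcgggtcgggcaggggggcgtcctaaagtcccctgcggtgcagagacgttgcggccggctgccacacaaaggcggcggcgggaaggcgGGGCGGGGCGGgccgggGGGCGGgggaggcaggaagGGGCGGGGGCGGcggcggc
Rgs5: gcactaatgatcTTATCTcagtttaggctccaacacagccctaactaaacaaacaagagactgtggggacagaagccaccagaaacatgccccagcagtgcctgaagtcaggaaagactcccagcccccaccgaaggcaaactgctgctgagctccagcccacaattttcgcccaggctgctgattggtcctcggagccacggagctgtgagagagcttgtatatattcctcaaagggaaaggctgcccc
The Serpine2 window was 78.8% G and C and held 6 GC boxes, 2 of which share a base, and 1 E box directly after the first GC box. The Rgs5 window was 53.6% G and C and held 1 GATA motif, read on the opposite strand (TTATCT), and no GC box or E box. Among 32851 mouse windows of the same length, 32.7% held a GC box, 66.2% an E box and 10.0% a GATA motif. Of the 8 windows of the identity genes, 5 held a GC box (Cspg4, Des, Gata3, Mcam and Serpine2), 5 an E box (Des, Itga8, Mcam, Pdgfra and Serpine2) and 1 a GATA motif (Rgs5). The TATA box TATAAA (12.4% of all windows) and the CArG box of muscle genes (1.5%) had 0 matches in these 8 windows. These are letter matches, not binding sites.

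Counts per kilobase of transcript, which allow genes to be compared, put Serpine2 first in each group. Serpine2 encodes protease nexin-1, a secreted inhibitor of serine proteases. Its mean over 11 libraries was 192 ± 82.8 CPM per kb (SD). Rgs5 (50.7 ± 15.6), Pdgfb (45.6 ± 11.9), Mcam (45.2 ± 8.53) and Itga8 (40.7 ± 11.6) came next, with ranges that overlapped. Des followed at 28.2 ± 7.07, Pdgfrb at 20.9 ± 6.87 and Gata3 at 17.9 ± 4.07 CPM per kb, and these neighbours overlapped too. Pdgfra (8.58 ± 3.06) and Cspg4 (5.22 ± 1.34) were lowest. These values use 1 transcript per gene, because the table lists several for Pdgfrb, Pdgfra, Itga8 and Rgs5. The 2 Pdgfrb transcripts had counts within 97.98% to 99.67% of each other in each library, so the summed CPM used below may count shared reads of such genes more than once.

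**Figure D1:**
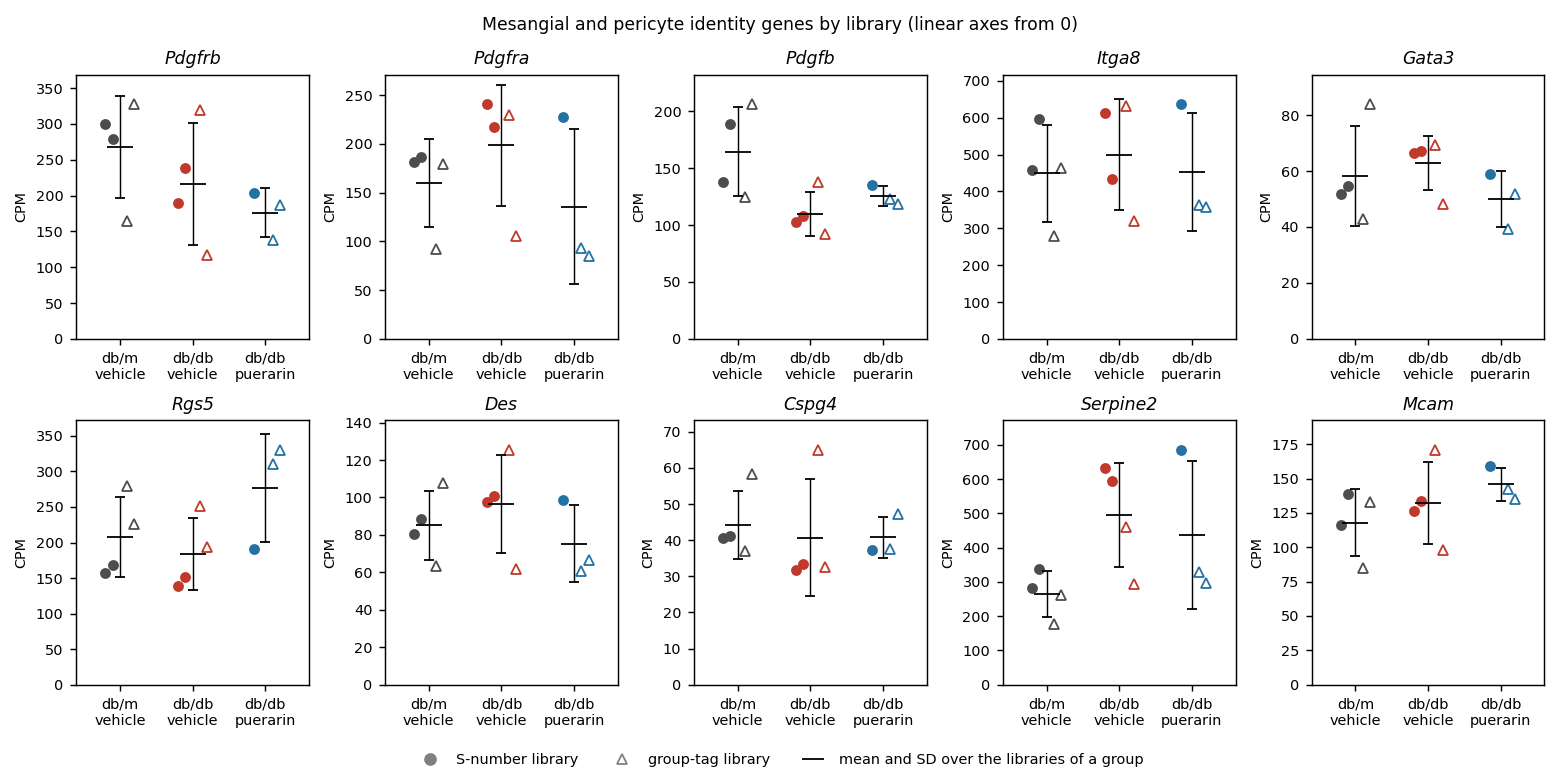
Level of each of the 10 genes in the 11 libraries (CPM, linear axes from 0), by group, with filled circles for S-number and open triangles for group-tag libraries, and black bars for the mean and SD of a group. The Rgs5 triangles (194 to 331 CPM) lie above its circles (139.5 to 190.4 CPM), and Serpine2 is lowest in db/m vehicle 2 (177 CPM).

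Diabetes was compared on vehicle first. Serpine2 read 632 and 593 CPM in the S-number and 461 and 294 CPM in the group-tag libraries of db/db mice. In db/m mice it read 281 and 338 CPM in the S-number and 177 and 262 CPM in the group-tag libraries. The db/db libraries lay above the db/m libraries within each title form, and the 2 groups overlapped only because db/db vehicle 3 (294 CPM) fell below db/m vehicle S185 (338 CPM). The fitted log2 difference was 0.88 ± 0.18 (SE), a 1.84-fold higher level, and missed the threshold of 0.05 (edgeR adjusted p = 0.135). In the S-number libraries alone it was 0.99, and in the group-tag libraries alone 0.77.

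Pdgfb, the ligand, lay in the other direction. It read 103 and 108 CPM in the S-number and 137 and 91.7 CPM in the group-tag libraries of vehicle-treated db/db mice, against 138, 189, 125 and 206 CPM in db/m vehicle S184, S185, 2 and 3. One library, db/db vehicle 1 (137 CPM), reached into the db/m range. The log2 difference was -0.58 ± 0.18 (edgeR adjusted p = 0.279), -0.62 among S-number and -0.52 among group-tag libraries.

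Its receptor Pdgfrb read 190.0, 238, 319 and 116.5 CPM in db/db vehicle S152, S153, 1 and 3. In db/m vehicle S184, S185, 2 and 3 it read 300.2, 279, 165 and 328 CPM. The spread within each group was about as wide as the whole range, and the log2 difference was -0.30 ± 0.30 (edgeR adjusted p = 0.771). Pdgfra encodes a receptor for PDGF-A and PDGF-C, among other PDGF ligands, and is also found on interstitial fibroblasts. It read 241, 218, 230 and 106 CPM in db/db and 182, 187, 92.4 and 179 CPM in db/m libraries in the same order. Its log2 difference was 0.31 ± 0.28 (edgeR adjusted p = 0.747).

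Itga8, the integrin alpha-8 chain that anchors mesangial cells to their matrix, read 613, 435, 633 and 319 CPM in db/db and 457, 597, 278 and 462 CPM in db/m libraries. Gata3, a transcription factor of mesangial cells, read 66.5, 67.0, 69.2 and 48.4 CPM against 51.8, 54.6, 42.8 and 84.0 CPM. Des, the muscle-type intermediate filament desmin, read 97.7, 101, 126 and 61.8 CPM against 80.6, 88.6, 63.3 and 108 CPM. For these 3 genes the groups overlapped widely, and the log2 differences were 0.18 ± 0.24, 0.10 ± 0.21 and 0.18 ± 0.23.

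Rgs5, a regulator of G-protein signalling typical of pericytes, read 139.5, 151.7, 251 and 194 CPM in db/db and 157, 169, 279 and 226 CPM in db/m libraries. Its values followed the title form more than the genotype, and the log2 difference was -0.17 ± 0.10 (edgeR adjusted p = 0.620). Cspg4, the NG2 proteoglycan of pericytes, read 31.6, 33.5, 65.1 and 32.6 CPM against 40.5, 41.2, 36.9 and 58.2 CPM. Mcam, the adhesion molecule CD146 of pericytes and endothelium, read 126, 133, 171 and 98.0 CPM against 116, 139, 84.7 and 133 CPM. Cspg4 and Mcam overlapped between the groups, with log2 differences of -0.14 ± 0.21 and 0.17 ± 0.18.

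In this comparison 0 of the 10 genes passed the edgeR test, against 0.0437% of all genes (6 of 13734). At an unadjusted p under 0.05 there were 2 (Serpine2 and Pdgfb), against 10.3% of all genes. DESeq2 called 1, Serpine2 (log2 0.87, DESeq2 adjusted p = 0.00135), in a fit that called 290 genes, and limma on the deposited log2 values called 0. The groups did not overlap for 0 of the 10, against 4.96% of all genes, and did not overlap within both title forms for 1 (Serpine2), against 10.4%. The median log2 difference was 0.14 over the 10 genes and 0.02 over all genes. Markers of other cells had median log2 differences of 1.21 over 12 myeloid, 0.27 over 15 proximal tubule, 0.38 over 12 loop and distal tubule and 0.48 over 12 collecting duct markers, all with 0 past the test, and -0.29 over 15 podocyte markers, of which Foxc2 passed (-0.70, edgeR adjusted p = 0.0398, and 0.0898 without db/db puerarin 2 and 3). Summed myeloid levels of S-number libraries were 163 and 154 CPM for db/db, below the 209 and 237 CPM of db/m. A sum is set mostly by its most abundant genes. The mean log2 level of the myeloid list overlapped between these libraries. It was -0.184 for db/db vehicle S152, -0.327 for S153, -0.279 for db/m vehicle S184 and -0.221 for S185. So a lower myeloid level is not read from these sums. Group-tag sums were 1134 (db/db vehicle 1) and 301 CPM for db/db, above the 89.97 and 121 CPM of db/m. Leaving out db/db vehicle 1 gave a myeloid median of 0.48. The summed levels of the groups overlapped, with proximal tubule genes at 1146 to 5968 CPM in db/db and 1628 to 8955 CPM in db/m libraries. Endothelial (-0.08 over 16) and fibroblast markers (0.01 over 7) had 0 past the test. The part of other cells in the Serpine2 and Pdgfb differences was not tested. A difference of the diabetes effect between the title forms passed for 0 of the 10 (edgeR adjusted p = 1 for each, smallest unadjusted p 0.333), against 0.0218% of all genes.

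Ratios between members within a library were also read. This way of looking, and Itga8 and Pdgfra as references, were chosen after the values were seen, so no test is given. Serpine2 stood at 5.78, 7.64, 4.08 and 5.16 times Itga8 (counts per kb) in db/db vehicle S152, S153, 1 and 3, and at 3.43, 3.17, 3.57 and 3.18 times in db/m vehicle S184, S185, 2 and 3. Every vehicle-treated db/db library lay above every db/m library. Pdgfb stood at 0.656, 0.970, 0.849 and 1.12 times Itga8 in the db/db and 1.18, 1.24, 1.76 and 1.75 times in the db/m libraries, all db/db below all db/m. Of the 9 genes set against Itga8 these 2 did not overlap, while 1.35% of all genes did not, and since the reference was chosen on these values nothing is read from that share here or below.

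Pdgfrb stood at 1.44, 2.04, 2.51 and 1.94 times Pdgfra (counts per kb) in vehicle-treated db/db and at 3.10, 2.74, 3.16 and 3.28 times in db/m libraries. Set against Pdgfra, 1.49% of all genes did not overlap between these groups. The 3 puerarin libraries had ratios of 1.63 (S144), 2.59 and 3.86 and overlapped both other groups. Pdgfb stood at 1.57 to 2.88 times Pdgfrb in vehicle-treated db/db and 1.68 to 2.76 times in db/m libraries, and Rgs5 at 1.58 to 4.22 and 1.28 to 4.22 times Pdgfrb, so these ratios overlapped. Of all 45 pairs of members 13 did not overlap between vehicle-treated db/db and db/m libraries. Serpine2 or Pdgfb was in 10 of the 13, and the other 3 set Pdgfrb against Pdgfra, Des and Mcam. For puerarin against vehicle 4 of the 45 did not overlap, and 10 for treated db/db against db/m libraries. The pairs share genes, and the share over all pairs of genes was not computed, so nothing is read from these counts.

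**Figure D2:**
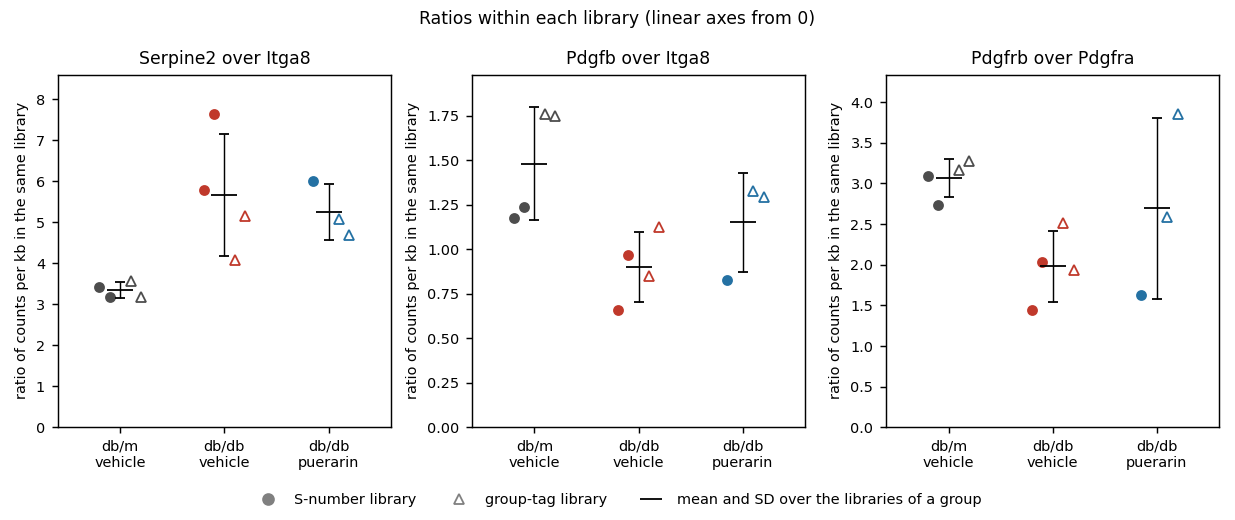
Ratio of Serpine2 to Itga8, Pdgfb to Itga8 and Pdgfrb to Pdgfra in each library (counts per kb of 1 transcript each, linear axes from 0), with bars for the mean and SD of a group. The db/m libraries (3.17 to 3.57 for Serpine2, 2.74 to 3.28 for the receptors) lie apart from the vehicle-treated db/db libraries (4.08 to 7.64 and 1.44 to 2.51).

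Puerarin was then compared with vehicle in db/db mice. Rgs5 read 190.4, 311 and 331 CPM in db/db puerarin S144, 2 and 3. Each was above the vehicle-treated db/db libraries of its title form, which read 139.5 and 151.7 CPM (S-number) and 251 and 194 CPM (group-tag). The log2 difference was 0.47 ± 0.11, a 1.39-fold higher level, with an unadjusted p of 0.00156 that did not pass (edgeR adjusted p = 0.967). Among S-number libraries it was 0.39 and among group-tag libraries 0.54, and it was 0.41 without db/db puerarin 2 and 3 (edgeR adjusted p = 0.802). The same comparison gave median log2 differences of -1.25 over 12 myeloid, -0.32 over 15 proximal tubule, -0.59 over 12 loop and distal tubule and -0.37 over 12 collecting duct markers, all with 0 past the edgeR test. With S144 as the only puerarin library these medians were -1.18, -1.20, -1.48 and -1.58, in the same order. Without db/db vehicle 1, which alone reached 1134 CPM of myeloid genes against 154 to 301 CPM in the other 3 vehicle-treated db/db libraries, the median over myeloid markers came to -0.28. Their summed level in the puerarin and vehicle groups of db/db mice ran from 142 to 276 and from 154 to 1134 CPM (myeloid), and from 3337 to 11442 and from 6850 to 17982 CPM (loop and distal tubule). Their part in the Rgs5 difference was not tested.

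Pdgfra read 228, 93.8 and 85.6 CPM in db/db puerarin S144, 2 and 3, and the latter pair lay below all 4 vehicle-treated db/db libraries. The log2 difference was -0.54 ± 0.30 (edgeR adjusted p = 0.967), and 0.01 without that pair. Pdgfrb read 204, 137 and 187 CPM, within the vehicle range of 116.5 to 319 CPM, and Pdgfb read 135, 123 and 118 CPM, against 91.7 to 137 CPM. Their log2 differences were -0.28 ± 0.32 and 0.19 ± 0.19. The ligand and both receptors thus overlapped between treated and untreated db/db mice.

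Itga8 read 637, 363 and 357 CPM in db/db puerarin S144, 2 and 3, Gata3 59.0, 39.3 and 51.9 CPM, and Des 98.7, 61.0 and 66.5 CPM. Cspg4 read 37.3, 37.6 and 47.3 CPM, Serpine2 686, 328 and 298 CPM, and Mcam 159, 143 and 135 CPM. All 6 overlapped the vehicle-treated db/db libraries. Library S144 held the highest Itga8, Gata3, Des, Serpine2 and Mcam of the 3. Log2 differences ran from -0.34 ± 0.25 (Des) to 0.16 ± 0.20 (Mcam), with Serpine2 at -0.11 ± 0.20.

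Of the 10 genes 0 passed for puerarin by edgeR, as did 0% of all genes, and DESeq2 (15 genes called in all) and limma also called 0 of the 10. Rgs5 alone had an unadjusted p under 0.05, against 4.21% of all genes. The groups overlapped for each of the 10, against 3.23% of all genes that did not overlap. Rgs5 alone did not overlap within both title forms, against 9.73% of all genes, with a single puerarin library in the S-number form. The ratio to Itga8 overlapped for each of the 9 other genes, and did not overlap for 0.313% of all genes. The median log2 difference of the 10 was -0.11, and of all genes -0.02.

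Treated db/db mice were also set against db/m mice, a comparison that shares its libraries with the first 2. Serpine2 lay above db/m within each title form, with a log2 difference of 0.77 ± 0.19 (edgeR adjusted p = 0.174) that was 1.15 among S-number and 0.54 among group-tag libraries. It stood at 6.01, 5.07 and 4.67 times Itga8 in db/db puerarin S144, 2 and 3, all above the 3.17 to 3.57 of db/m libraries. In this ratio 1 of the 9 genes (Serpine2) did not overlap, and 1.92% of all genes did not. Rgs5 was 0.30 ± 0.11 higher (edgeR adjusted p = 0.365), Mcam 0.32 ± 0.20 higher, Pdgfb -0.39 ± 0.19 and Pdgfrb -0.58 ± 0.33 on the log2 scale, with none past the test. Without db/db puerarin 2 and 3, Serpine2 stood at 1.11 (edgeR adjusted p = 0.528), and Pdgfra moved from -0.23 to 0.32.

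By edgeR 0 of the 10 passed, against 0.182% of all genes (25). Serpine2 and Rgs5 had an unadjusted p under 0.05, against 10.3% of all genes. DESeq2 called 1 of the 10, Serpine2 (log2 0.77, DESeq2 adjusted p = 0.0176), among 297 genes, and limma called 0. The groups overlapped for each of the 10, against 7.65% of all genes that did not. Within both title forms 4 did not overlap (Pdgfb lower, and Rgs5, Serpine2 and Mcam higher), against 15.8% of all genes. The median log2 difference was -0.17 over the 10 genes and -0.01 over all genes.

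**Figure D3:**
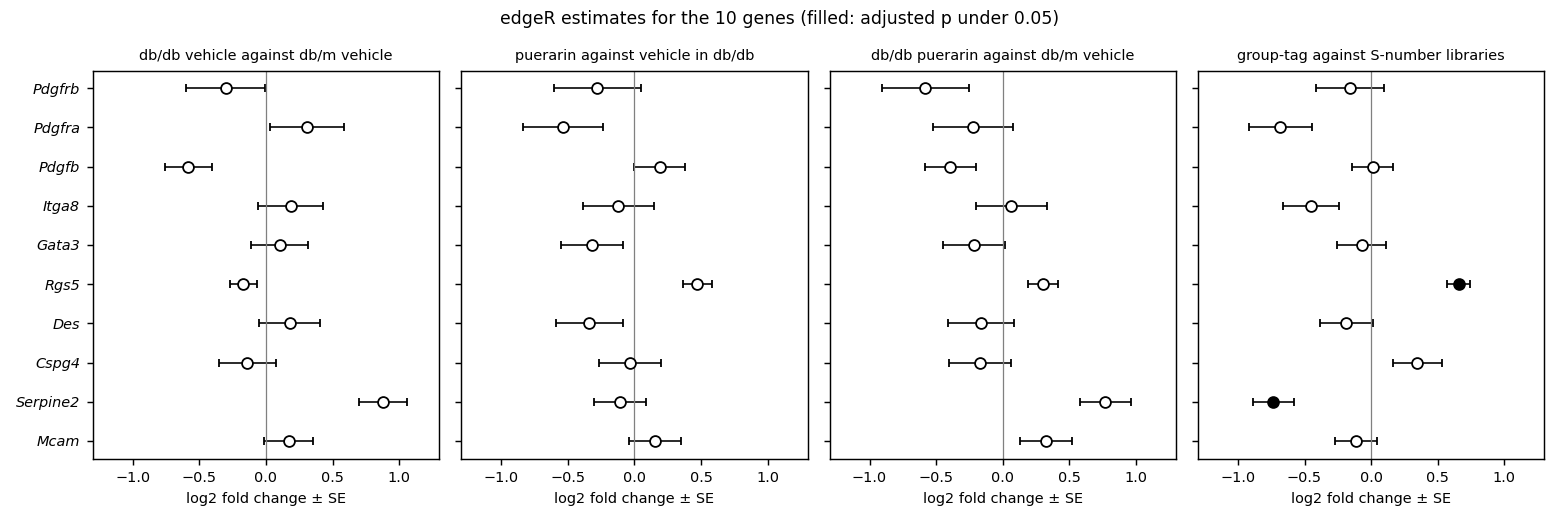
Log2 fold change ± SE of the 10 genes from edgeR in 4 comparisons, with filled points where the adjusted p was under 0.05. Serpine2 (0.88 and 0.77) lies right of 0 in both comparisons with db/m mice, and the filled points are Rgs5 (0.66) and Serpine2 (-0.73) between the title forms.

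Between the title forms 2 of the 10 genes passed the test. Rgs5 read 139.5 to 190.4 CPM in S-number libraries (median 156.7) and 194 to 331 CPM in group-tag libraries (median 265), without overlap. It was 0.66 ± 0.09 higher on the log2 scale in group-tag libraries (edgeR adjusted p = 0.00483), by 0.63 in db/m, 0.60 in vehicle-treated db/db and 0.75 in puerarin-treated db/db mice. Without db/db puerarin 2 and 3 the value was 0.63 (edgeR adjusted p = 0.0561). Serpine2 was lower in group-tag libraries (median 296 CPM, range 177 to 461) than in S-number libraries (median 593 CPM, range 281 to 686), with a log2 difference of -0.73 ± 0.15 (edgeR adjusted p = 0.0247), and -0.52, -0.73 and -1.13 in the 3 groups. That call was lost on leaving out any 1 of db/db puerarin S144 or 3, db/db vehicle S152, S153 or 3, or db/m vehicle S185 or 2, with log2 values of -0.75 to -0.60 and edgeR adjusted p from 0.0502 to 0.118. It was -0.59 without db/db puerarin 2 and 3 (edgeR adjusted p = 0.169).

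These 2 were the only identity genes past the test between title forms by edgeR, against 6.97% of all genes (776 higher and 181 lower). At an unadjusted p under 0.05 Pdgfra joined them (log2 -0.68 ± 0.24, edgeR adjusted p = 0.110), for 3 of 10 against 25.3% of all genes, and DESeq2 called all 3. Rgs5 alone did not overlap between the forms, against 6.71% of all genes. Without db/db vehicle 1, in a fit that called 1791 of all genes, Pdgfra (-0.89, edgeR adjusted p = 0.0230) and Itga8 (-0.65, edgeR adjusted p = 0.0297) passed as well. Of the loop and distal tubule markers 9 of 12 passed as higher in group-tag libraries, as did 5 of 12 collecting duct markers, with medians of 1.24 and 1.25. Proximal tubule markers had a median of -0.43 with 0 of 15 passing, podocyte markers -0.26 with 1 of 15 passing (Foxc2, lower), glomerular endothelial markers -0.31 with 2 of 16 passing (Eng and Ednrb, lower), myeloid markers 0.58 with 0 of 12 passing, and fibroblast markers -0.19 with 1 of 7 passing (Col3a1, higher). With db/db puerarin 2 and 3 left out, edgeR called 81 of all genes in place of 957, 0 loop and distal tubule markers (median 0.95), 1 collecting duct marker (Avpr2, median 0.82), and 0 podocyte, endothelial and fibroblast markers. Their part in the Rgs5 and Serpine2 differences was not tested.

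Genes outside the 10 that work in the same cells were read from lists. Of 16 contractile genes of smooth muscle, which mark arteriolar muscle and activated mesangial cells, 6 passed as higher in group-tag libraries. Of all genes 6.97% passed in either direction. The 6 were Acta2 (log2 1.74), Myh11 (2.32), Cnn1 (3.29), Tagln (1.20), Tpm2 (1.04) and Lmod1 (1.25), with edgeR adjusted p of 0.00245 or less. These 6 passed without db/db puerarin 2 and 3 as well, with log2 values of 1.05 to 3.04 and edgeR adjusted p of 0.0297 or less. For puerarin against vehicle all 16 had positive estimates with a median of 0.35, 9 at an unadjusted p under 0.05 and 0 past the edgeR test, while 6145 of all 13734 genes had positive estimates and 4.21% an unadjusted p under 0.05. Without db/db puerarin 2 and 3, which leaves S144 alone, 15 of 16 were positive with a median of 0.45 and 6 had an unadjusted p under 0.05, against 5.53% of all genes. The smallest p belonged to Acta2, smooth muscle actin (0.75 ± 0.11, edgeR adjusted p = 0.526). It read 81.8, 245 and 309 CPM in db/db puerarin S144, 2 and 3, and 48.1, 50.4, 184.6 and 142 CPM in db/db vehicle S152, S153, 1 and 3, so each puerarin library lay above the vehicle libraries of its title form. Its value was 0.75 without db/db puerarin 2 and 3 (edgeR adjusted p = 0.802). Tagln (0.56) and Tpm2 (0.64) followed. Between vehicle-treated db/db and db/m mice 12 of the 16 were negative, against 6386 of all 13734 genes, with a median of -0.11 and 0 passing. Myh11 (-0.57 ± 0.14), Lmod1 (-0.51 ± 0.16) and Acta2 (-0.30 ± 0.10) had the smallest p. In treated db/db against db/m mice 14 of 16 were positive, against 6551 of all 13734 genes, and 0 passed. Tpm1 led (0.64 ± 0.12, edgeR adjusted p = 0.0752). With S144 as the only puerarin library 13 of 16 were positive, against 6585 of all 13734 genes, with a median of 0.34. Without db/db vehicle 1, in a fit that called 74 of all genes, 1 passed (Tpm2, 0.61, edgeR adjusted p = 0.0491).

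Among 27 measured ligands, receptors and adaptors of PDGF signalling outside the members, 0 passed in any of the 3 group comparisons. Pdgfc, a ligand of PDGFR-alpha, read 14.3 ± 3.31 CPM in db/m, 9.69 ± 0.908 in vehicle-treated and 7.38 ± 1.09 in puerarin-treated db/db mice (SD), with a log2 difference of -0.55 ± 0.16 on vehicle (edgeR adjusted p = 0.269) and -0.91 ± 0.18 for treated db/db against db/m (edgeR adjusted p = 0.103). Stat3, a transcription factor downstream of many cytokine receptors, was at 0.45 ± 0.12 on vehicle (edgeR adjusted p = 0.221). Over all genes 6.97% passed between title forms. Between title forms Src (0.60) and Stat5a (0.56) passed as higher and Pik3ca (-0.28) as lower in group-tag libraries, and 0 of the 27 passed without db/db puerarin 2 and 3.

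Of 30 further mesangial genes 1 passed in a group comparison. Fbln5, an elastic-fibre protein, was higher in treated db/db than in db/m mice (66.7 ± 7.47 against 39.8 ± 7.68 CPM, SD, log2 0.71 ± 0.11, edgeR adjusted p = 0.0454). It read 53.3 ± 4.87 CPM in vehicle-treated db/db mice (log2 0.43 ± 0.10 against db/m, edgeR adjusted p = 0.160). Without db/db puerarin 2 and 3 the comparison of treated db/db with db/m mice called 0 of all genes, and Fbln5 was at 0.73 (edgeR adjusted p = 0.517). Without db/db vehicle 1 the renin genes Ren1 (-1.31, edgeR adjusted p = 0.0409) and Ren2 (-1.32, edgeR adjusted p = 0.0362), whose sequences are nearly identical so that reads may be split between them, passed as lower on vehicle. Foxd1, a transcription factor of the stromal lineage, was at -0.48 ± 0.11 on vehicle (edgeR adjusted p = 0.155). Fhl2 (-0.56) passed between title forms, where 0 of the 30 passed without db/db puerarin 2 and 3 and 11 without db/db vehicle 1. Calls over all 13734 genes rose as well without db/db vehicle 1, to 82 on vehicle and 1791 between title forms. With all 11 libraries the list's medians were 0.04 for vehicle-treated db/db against db/m, -0.04 for puerarin against vehicle and -0.21 between title forms.

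Of 20 further pericyte genes 0 passed in a group comparison. Eng and Tek are also on the glomerular endothelial list, so the call of Eng below is the one given there. Cox4i2, a cytochrome oxidase subunit used as a pericyte marker, was low, with means of 1.52 CPM in vehicle-treated db/db and 2.94 CPM in db/m mice. It had the largest shift of those named on vehicle (-1.03 ± 0.22, edgeR adjusted p = 0.138). Without db/db vehicle 1 it was -1.20 (edgeR adjusted p = 0.0467), in a fit that called 82 of all genes. Foxc1 (-0.53 ± 0.12) and Mgp (0.70 ± 0.20) had the next smallest p. Higd1b, another pericyte marker with low counts, went the other way on vehicle (0.82 ± 0.29, edgeR adjusted p = 0.356). Its means were 2.77 CPM in vehicle-treated db/db and 1.55 CPM in db/m mice. In treated db/db against db/m mice Higd1b was at 1.10 ± 0.30 (edgeR adjusted p = 0.231). Of all genes 6.97% passed between title forms. Between title forms Jag1 (0.57), Cox4i2 (0.96) and Tbx2 (0.46) passed as higher and Cdh2 (-0.44) and Eng (-0.47) as lower, and 0 of the 20 without db/db puerarin 2 and 3.

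The 10 genes did not vary as 1 unit. Over the 11 libraries the 45 pairs of log2 CPM had a median Pearson r of 0.469, with 20 above 0.5 and 8 negative. After group and title form were subtracted, the 36 pairs without Rgs5 had r of 0.662 to 0.977 (median 0.851), and the 9 pairs with Rgs5 had r of -0.145 to 0.289. The closest pair was Pdgfrb and Cspg4. For comparison, the median r of each gene with all genes above 5 CPM lay between -0.03 and 0.01, and the 90th percentile was 0.640 to 0.716 for the 9 genes other than Rgs5 and 0.506 for Rgs5. The pairs share their libraries and whatever other tissue these held, and 7 degrees of freedom remained.

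Whole libraries shifted for these genes. The mean log2 level of the 10, relative to the mean of all libraries, was lowest in db/db vehicle 3 (-0.42) and db/m vehicle 2 (-0.40) and highest in db/db vehicle 1 (0.42). Db/db vehicle 3 was also lowest in the list levels of further mesangial (-0.48), glomerular endothelial (-0.53) and podocyte genes (-0.40) and high in proximal tubule (1.05), loop and distal tubule (1.12) and collecting duct genes (0.93). Db/db vehicle 1 was highest in myeloid genes (2.51), with C1qa at 93.3 CPM. Without these 2 db/db libraries the 36 pairs without Rgs5 ran from 0.457 to 0.975 and the 9 pairs with Rgs5 from -0.872 to -0.559. Without db/m vehicle 2 and 3 the pairs with Rgs5 ran from 0.480 to 0.855. Without db/db puerarin 2 and 3 they ran from -0.143 to 0.288. The sign of the Rgs5 pairs thus differed with the libraries left out, whereas the 36 pairs of the other 9 genes were positive in each of these 3 settings.

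**Figure D4:**
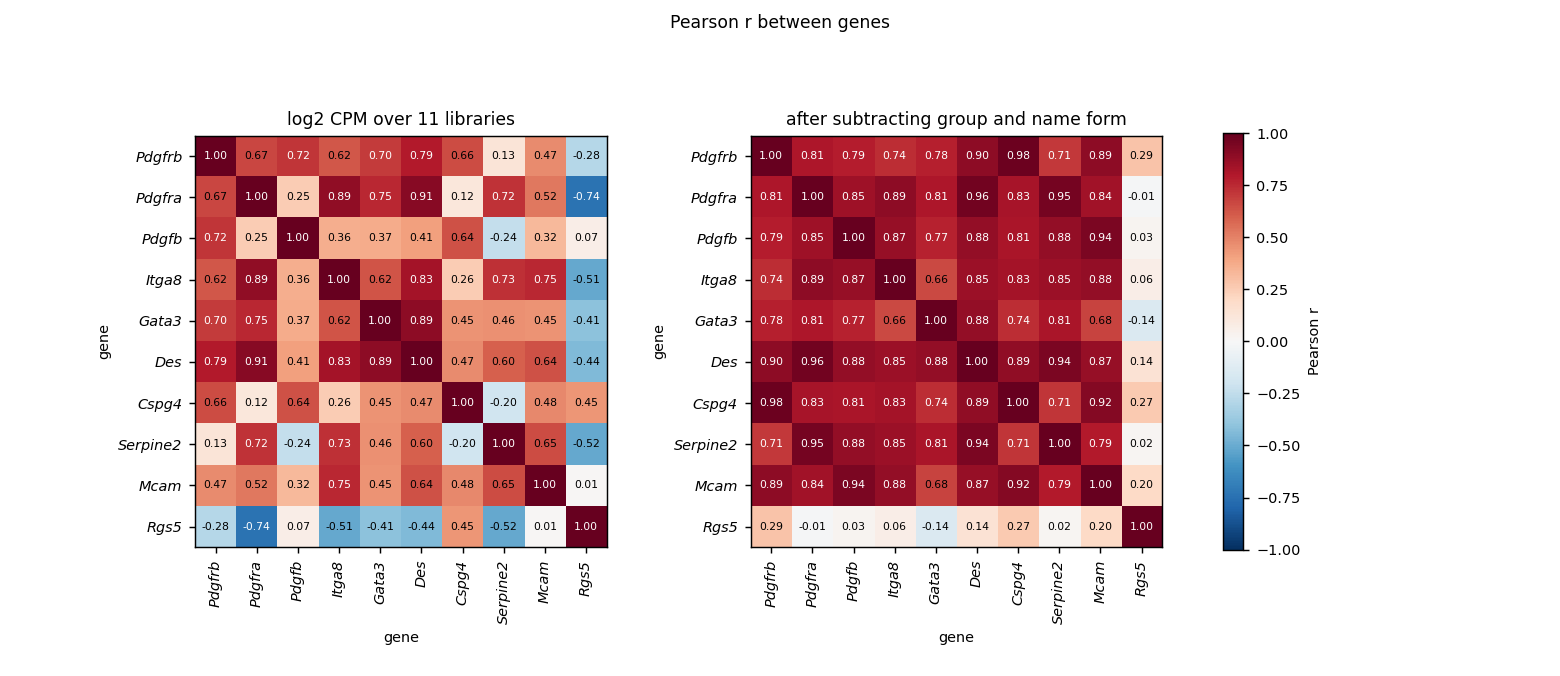
Pearson r between the 10 genes over 11 libraries, for log2 CPM (left) and after subtracting group and title form (right), from -1 (blue) to 1 (red). On the right the 9 genes other than Rgs5 form a block from 0.662 to 0.977, and the Rgs5 row runs from -0.145 to 0.289.

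The genes with the most similar profiles differed between members. Each was compared with 11633 genes of at least 5 CPM over the 11 libraries. Rgs5 ran closest to Pln (Pearson r 0.968), Acta2 (0.963) and Tpm2 (0.962), which encode phospholamban, smooth muscle actin and beta-tropomyosin of muscle cells. After group and title form were subtracted these were 0.949, 0.757 and 0.569. Pdgfrb ran closest to Dnah2 (0.949), Lama4 (0.948) and Blmh (0.938), of which Lama4 encodes a laminin chain of vascular basement membranes. Itga8 ran closest to Lmo7 (0.956), Adamts5 (0.940) and Stab1 (0.938). Being the highest of many, such r values come out high by selection.

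**Figure D5:**
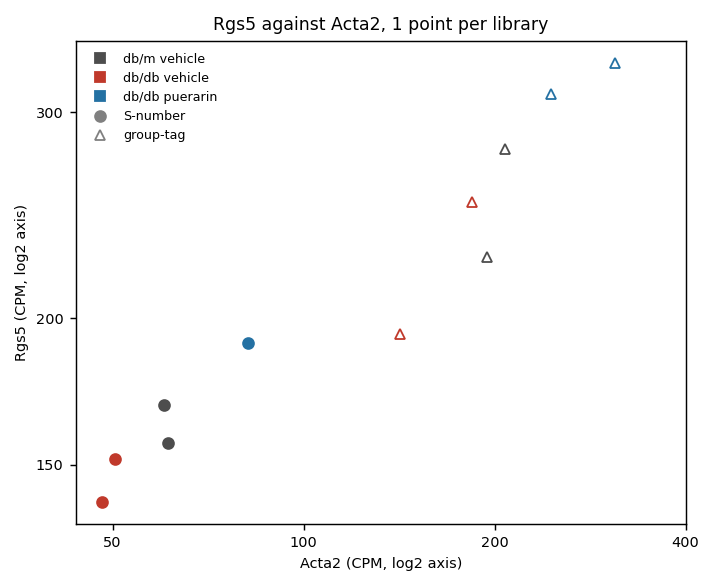
Rgs5 against Acta2 (CPM, both axes log2), 1 point per library, coloured by group, with filled circles for S-number and open triangles for group-tag libraries. Acta2 runs from 48.1 to 309 CPM and Rgs5 from 139.5 to 331 CPM, and the circles lie below the triangles on both axes.

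Transcript ratios were read for some transcripts of Pdgfra, Pdgfrb, Itga8 and Rgs5, and 2 of Pdgfra did not overlap between title forms. The share over transcripts of all genes was not computed, so nothing particular to Pdgfra is read from this. The short Pdgfra transcript that shares its start with the longest one had 38.2% to 41.3% of the longest transcript's count in S-number and 33.9% to 37.4% in group-tag libraries. A noncoding Pdgfra transcript had 23.4% to 26.5% and 19.5% to 23.0% of the same count. Across groups the share of the short one ran from 36.0% to 41.3% in db/m, 33.9% to 40.6% in vehicle-treated and 34.1% to 38.2% in puerarin-treated db/db libraries, and both shares overlapped. The short Rgs5 transcript had 4.93% to 7.12% of the long transcript's count in S-number and 3.68% to 5.96% in group-tag libraries, which overlapped. The sources used here do not say how reads shared by transcripts were assigned.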

How the data were processed

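The authors deposited whole-number counts per RefSeq transcript (22320 transcripts) and log2 values for glomerular RNA of 11 libraries. The submitters' processing notes name BWA, limma and the build mm10, with no version. The sources used here do not say how reads were assigned or whether strand was considered. The table held 8 columns of values of no listed sample, which were not used, and 13 blank cells, set to 0. Spreadsheet dates among the symbols (50) were restored from identifiers.

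Counts were summed per symbol to 13734 genes. Library totals were 35369703 to 44244460, and the lowest count of a member in a library was 1200, a counting error of at most 2.89%. edgeR 4.0.16 (R 4.3.3, TMM, quasi-likelihood test, two-sided) was fitted to all 11 libraries with group and title form as terms, leaving 7 residual degrees of freedom. The filter, a count of 1 or more in 3 libraries, removed 0 genes. P-values were adjusted by Benjamini-Hochberg over all genes with a threshold of 0.05. DESeq2 1.42.0, limma 3.58.1 on the deposited log2 values, other filters and left-out libraries were the alternatives. The list counts without db/db puerarin 2 and 3 or without db/db vehicle 1 were added after seeing the data. Sequences and motifs were read with Python 3.11.15.

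On simulated counts of 13734 genes the test found 62% of 2-fold and 28% of 1.5-fold changes for the diabetes comparison on vehicle. The shares were 68% and 26% for puerarin against vehicle, 70% and 24% for treated db/db against db/m, and 84% and 34% between title forms. Apart from the changes put in, the simulated libraries shared 1 mean per gene and had no shifts of whole libraries. The shares found may thus differ in the real data. Real libraries of the same group all differed by more than sampling noise. Members and lists were chosen with earlier results of these data known. Named genes are all 10 members, list genes past the test or else up to 3 with the smallest p, and the 3 most similar profiles of Pdgfrb, Itga8, Rgs5 and Gata3. The profiles most similar to Gata3 are not reported here. The lists were PDGF signalling, mesangial, pericyte, contractile, podocyte, glomerular endothelial, myeloid, fibroblast, collecting duct, loop and distal tubule, and proximal tubule genes. Listed genes without a row in the table used here were not analysed.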

Additional observations from a re-analysis of the deposited data

Results flagged for a closer look

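Single libraries stood apart from the rest of their group for 3 of the 20 groups of 4 libraries examined. The groups are the same vehicle libraries read for each member, and each holds both title forms. Most members also varied together, and the 3 libraries below lie at the ends of the range of their mean level. A chance rate of about 1 in 20 holds for independent groups, so no excess over chance is read from the 3. Pdgfra was low in db/m vehicle 2, at 92.4 CPM against 179 CPM in the nearest db/m library. Gata3 was low in db/db vehicle 3, at 48.4 CPM against 66.5 CPM in the nearest vehicle-treated db/db library. Cspg4 was high in db/db vehicle 1, at 65.1 CPM against 33.5 CPM in the nearest vehicle-treated db/db library.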

How the results depend on the processing

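Over 810 alternative estimates of the members' log2 differences, 750 kept direction and side of the threshold, 9 lost and 5 gained a call, and 46 changed sign. The count past the test became 1 with DESeq2 on vehicle and 1 for treated db/db against db/m. Between title forms it was 0 without db/db puerarin 2 and 3 (a setting added for the comparisons of puerarin after seeing the data) and 1 to 4 on leaving out 1 library. Over all genes and settings, 0 to 290 genes passed on vehicle, 0 to 15 for puerarin, 0 to 297 for treated db/db against db/m and 81 to 1885 between forms. Deviations of group-tag libraries that share the number 2 or 3 had r of -0.0736 to 0.0749. With 2 group-tag libraries per group these deviations mirror each other, so the r values do not settle whether shared numbers pair libraries. The fit with a replicate block called 0 of the 10 in each group comparison, with 56 genes in all on vehicle and 49 for treated db/db against db/m. It turned Pdgfra to -0.043, Itga8 to -0.15, Gata3 to -0.049, Des to -0.12 and Mcam to -0.067 on vehicle, and Pdgfrb to 0.24, Itga8 to 0.27, Cspg4 to 0.35 and Serpine2 to 0.080 for puerarin. Cspg4 for puerarin was 0.027 with limma and 0.0013 without the form term. Itga8 on vehicle was -0.026 in S-number libraries only. In group-tag libraries only, Gata3 was -0.10 and Cspg4 0.045 on vehicle, and Itga8 -0.048 for treated db/db against db/m. Without db/db puerarin 2 and 3, the puerarin values were 0.0098 (Pdgfra), 0.20 (Itga8), 0.035 (Des), 0.12 (Cspg4) and 0.23 (Serpine2), those against db/m 0.32 (Pdgfra), 0.053 (Gata3) and 0.22 (Des), and Gata3 between forms 0.044. Leaving out 1 library at a time changed further signs. On vehicle, values ran from -0.097 to 0.33 (Itga8), -0.012 to 0.39 (Gata3), -0.066 to 0.39 (Des) and -0.030 to 0.28 (Mcam). For puerarin they ran from -0.49 to 0.14 (Pdgfrb), -0.31 to 0.20 (Itga8), -0.17 to 0.27 (Cspg4) and -0.32 to 0.048 (Serpine2). For treated db/db against db/m they ran from -0.60 to 0.064 (Pdgfra), -0.14 to 0.23 (Itga8), -0.37 to 0.11 (Gata3) and -0.40 to 0.077 (Des), and between forms from -0.10 to 0.10 (Pdgfb) and -0.27 to 0.035 (Gata3). The cause was not tested.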
